A study of Mus musculus with 16 samples.

Results

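Ch25h and 7 genes of cholesterol sensing and export were followed in mouse macrophages given or denied serine and treated or not with lipopolysaccharide (LPS). The 8 genes were picked by symbol from a table of 43430 genes, as the producer of an oxysterol ligand (Ch25h), the liver X receptors that sense oxysterols (Nr1h3 and Nr1h2) and target genes of those receptors (Abca1, Abcg1, Apoe, Mylip and Lpcat3). All 8 were among the 11004 genes with enough counts to be tested.

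The libraries came from bone marrow-derived macrophages of C57BL/6J mice, which are phagocytes grown from marrow cells, here with macrophage colony-stimulating factor at 20 ng/mL and harvested on day 6. Each of the 4 groups had 4 libraries: complete MEM without LPS, MEM lacking serine without LPS, complete MEM with LPS at 100 ng/mL, and MEM lacking serine with the same dose. RNA was taken 4 h after LPS. No group carries a genetic change, and the series title links IL-1β production by macrophages to serine. How long the cells were without serine is not given in the labels used here.

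Cholesterol that a macrophage takes up or makes can be oxidised to oxysterols, and CH25H is the enzyme that adds a hydroxyl group at carbon 25 of the side chain. Oxysterols bind the liver X receptors LXRα (Nr1h3) and LXRβ (Nr1h2), which pair with retinoid X receptors on DNA and switch on genes that move cholesterol out of the cell. 25-hydroxycholesterol also holds back the SREBP2 pathway of cholesterol synthesis, and Ch25h is a gene that macrophages are known to induce through Toll-like receptor and interferon signalling.

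The promoter sequences of Ch25h and Abca1 are shown because the estimates for serine withdrawal in LPS-treated cells had opposite signs in these genes. They are the 250 bases before the RefSeq start site on the minus strand of GRCm38.p6, at chr19:34475149-34475398 for Ch25h and chr4:53159896-53160145 for Abca1. In Ch25h the capitals mark a TATAAA match at bases -151 to -146 and an NF-κB-like match, GGG and CC with any 5 bases between them, at -48 to -39, counted from the start site. In Abca1 they mark the closest match to the LXR direct repeat at -67 to -52 and TATAAA at -29 to -24, while its NF-κB-like match at -164 to -155 is left in lower case.
Ch25h: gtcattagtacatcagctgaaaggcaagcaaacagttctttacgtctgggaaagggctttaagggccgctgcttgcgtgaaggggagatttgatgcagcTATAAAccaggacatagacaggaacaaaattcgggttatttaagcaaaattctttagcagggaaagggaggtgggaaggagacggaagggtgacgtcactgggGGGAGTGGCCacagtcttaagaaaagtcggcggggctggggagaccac
Abca1: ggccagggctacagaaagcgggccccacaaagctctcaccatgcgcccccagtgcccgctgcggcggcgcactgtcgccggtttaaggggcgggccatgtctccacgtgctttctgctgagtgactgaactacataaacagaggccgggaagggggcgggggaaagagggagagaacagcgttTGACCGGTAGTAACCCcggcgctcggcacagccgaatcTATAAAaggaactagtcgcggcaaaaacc

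The letters searched for the LXR repeat were AGGTCA, any 4 bases and AGGTCA again, on both strands as for all motifs here, and the Abca1 match lies on the strand opposite to the gene. Read along that strand, with capitals at the letters that it shares with the repeat, it is as follows.
Abca1 match: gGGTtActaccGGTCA
This match differs from the repeat at 3 fixed letters. With up to 3 mismatches Abca1 was the only member with a match in the window from 250 bases before to 50 after the start, a number of mismatches at which 21.9% of 32851 RefSeq promoters had one. With up to 2 mismatches none of the 7 members with a RefSeq promoter entry had a match, against 3.02% of all promoters, and the same was true at up to 1 mismatch, against 0.25%. The interferon-type letters, GAAA and GAAA with any 2 bases between them, were found in none of the 7 members and in 3.44% of promoters. The NF-κB-like letters were found in each of the 7 members and are common, with a match in 50.8% of promoters. TATAAA was found in Ch25h, Abca1, Apoe and Mylip, and in 13.6% of promoters. The shares are per promoter entry, while a member counts if any of its entries has a match, and the 7 members have 10 entries. For Apoe the entry at chr7:19699139-19699438 had no match, and the NF-κB-like and TATAAA matches lie in its other entries. A match gives letters only, not binding, and no match says only that those letters are not in that window. Abcg1 had no entry.

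Total counts lay between 5760734 and 10043362 in 15 libraries, and replicate 4 of the untreated cells without serine stood apart with 2871477 and is the shallow library named below. In it the top 20 genes took 23.1% of the counts and 12900 genes were detected, where the 3 libraries beside it had 14997 to 16031. LPS effects in the absence of serine and withdrawal effects in untreated cells use this library in their means. The fitted values without it are given beside those named. It also enters the spread that all comparisons share. Without it 156 genes passed for withdrawal in LPS-treated cells in the unpaired edgeR model, in place of 7. Replicate 1 of every group had an Xist count of 0 and 1214 to 2420 counts from the Y chromosome. In the 12 libraries of replicates 2 to 4 Xist had 351 to 1477 counts and the Y chromosome 1 to 16, so that sex and replicate 1 cannot be told apart. The labels do not say whether replicates are separate animals. By these counts replicate 1 came from male and replicates 2 to 4 from female cells, so not all came from 1 animal. Whether replicates 2 to 4 were separate animals is not known. A p-value here thus speaks only of the spread among libraries, part of which may be technical. The 8 macrophage markers summed to 16400 to 27300 CPM over the 16 libraries, where CPM is the usual depth-scaled count, here with library sizes scaled by TMM. Neutrophil markers summed to 7.58 to 107 CPM, with ranges that overlapped between the 4 groups, and stromal markers to 0.974 to 29.0 CPM. For B lineage markers the highest sum was 3.04 CPM. Dendritic cell markers summed to 0.418 to 1.54 CPM without LPS and 2.42 to 5.90 CPM with it, and their part in the LPS results was not tested. Markers of T and NK cells (at most 0.169 CPM) and of mast cells and basophils (at most 0.398 CPM) were near 0, with Cd3e and Cd3d at 0 in every library.

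Ch25h was close to silent in untreated macrophages and among the strongly expressed members after LPS. Ch25h (ENSMUSG00000050370, mm10 chromosome 19, 34473786 to 34475135, minus strand) had raw counts of 0, 1, 0 and 1 in replicates 1 to 4 with serine and 1, 2, 0 and 0 without it. With LPS and serine the counts were 2367, 1861, 2744 and 2288, or 352, 321, 465 and 461 CPM. With LPS and no serine they were 1185, 803, 1404 and 1398, or 180, 139, 262 and 272 CPM. Every LPS library was far above every untreated one, and every LPS library without serine was below every LPS library with it.

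The LPS effect on Ch25h was a ratio of 6890 with serine (95% counting interval 1910 to 56900, from 9260 counts against 2). Without serine it was 2340 (800 to 11300, from 4790 against 3). These intervals cover counting error only, and with library sizes scaled to total counts the ratios were 4500 and 1540. Both passed the test across all genes (edgeR adjusted p = 2.18e-12 and 7.31e-12), the second also without the shallow library (2.91e-11). In a bulk sample, fewer cells that express a gene and less RNA per cell cannot be told apart. The gene shares 159 of its exon bases, 11.5%, with Gm26902 on the opposite strand, which had 34 counts in all LPS libraries with serine and 22 without it, and reads of the shared stretch cannot be told apart without strand.

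Serine withdrawal lowered Ch25h in LPS-treated cells in the paired comparison, from a mean of 399.9 ± 73.97 to 213.6 ± 64.5 CPM (SD, n = 4), which is 1.87-fold lower. Replicate numbers paired the libraries, and the log2 ratios within the pairs 1 to 4 were -0.966, -1.21, -0.825 and -0.76. All 4 pairs were lower by a similar amount. In the unpaired model the log2 fold change was -0.91 ± 0.22 (SE) and missed the threshold of 0.05 (edgeR adjusted p = 0.164). With the replicate number as a block it was -0.94 ± 0.15 (edgeR adjusted p = 0.012), and DESeq2 without a block gave -0.90 ± 0.25 (adjusted p = 0.0401). Leaving out replicate 4 of the untreated cells without serine, which is in neither group but enters the shared estimate of the spread, gave an adjusted p of 0.0338 in the unpaired edgeR model. Without LPS both groups were at or under a floor of 3 counts, so no fold is given there. The difference between the withdrawal effects with and without LPS was -1.42 ± 1.28 (edgeR adjusted p = 0.95), with that floor on one side of it.

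**Figure D1:**
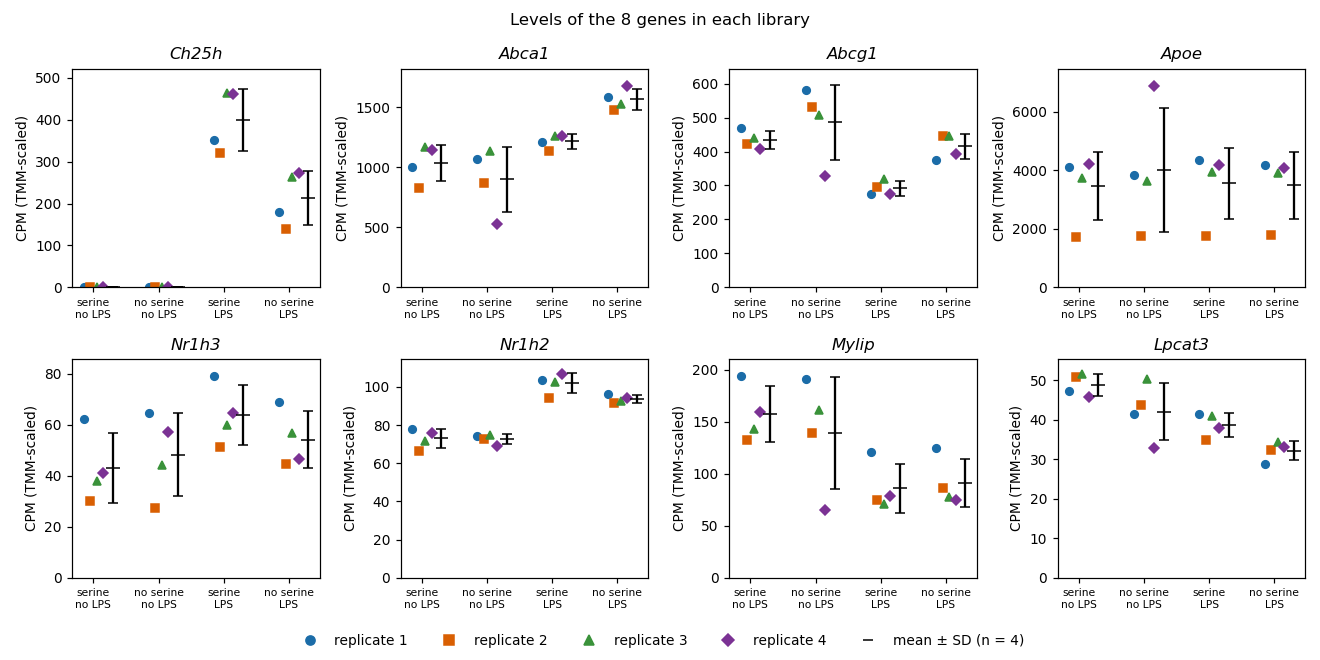
Levels of the 8 genes in each of the 16 libraries, as CPM on linear axes that start at 0; symbols mark replicates 1 to 4 and the black bars the mean ± SD of the 4 libraries of a group. Ch25h is at the baseline without LPS and lower without serine in LPS-treated cells, Abca1 is highest in LPS-treated cells without serine, and replicate 2 has the lowest Apoe in each group.

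Across the 8 members, LPS in the presence of serine raised 2 and lowered 3 at an adjusted p under 0.05, which is 5 of 8 where 55.8% of all tested genes passed (27.6% higher and 28.2% lower). Ch25h and Nr1h2 rose, the latter not under total-count scaling, and Abcg1, Mylip and Lpcat3 fell. In the absence of serine 4 of 8 passed, against 56.8% of all genes (27.1% higher and 29.7% lower): Ch25h, Abca1 and Nr1h2 rose, Abca1 and Nr1h2 not under total-count scaling, and Lpcat3 fell. The members were thus called about as often as other genes, and the median log2 fold change was 0.14 over the members and -0.03 over all genes with serine, and -0.02 and -0.12 without it. LPS changed the scaling itself: with total counts in place of TMM the median of all genes was -0.64 and -0.69, 1666 genes were higher and 6407 lower with serine in place of 3041 and 3098, and the members split into 1 higher and 3 lower in both media, where 15.1% and 58.2% of all genes did with serine and 15.3% and 59.7% without it. Without the shallow library 6 of 8 members passed for LPS in the absence of serine, against 63.4% of all genes, with Abcg1 and Mylip added. With the block and without that library 7 passed, against 70.7%. By the plain range of the libraries, LPS and untreated groups did not overlap for 5 members with serine and 3 without it, where 61.6% and 47.7% of all genes did not. Directions with LPS are therefore relative to the TMM centre, and those that turn are named below.

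The receptor genes were expressed in every group, and LPS moved LXRβ upward relative to that centre. Nr1h2 (ENSMUSG00000060601, chromosome 7, 44549616 to 44553951, minus strand), the broadly expressed receptor LXRβ, had 78.1, 66.3, 71.8 and 75.9 CPM untreated with serine and 103.6, 94.5, 102.8 and 106.9 CPM with LPS. In medium lacking serine it had 74.3, 72.9, 74.8 and 68.8 CPM untreated and 96.2, 91.5, 92.7 and 94.1 CPM with LPS. The LPS libraries lay above all untreated ones in both media.

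The log2 fold change of Nr1h2 with LPS was 0.48 ± 0.09 with serine (edgeR adjusted p = 0.00018) and 0.36 ± 0.09 without it (adjusted p = 0.00211; 0.34 and 0.000559 without the shallow library), and it was -0.14 and -0.21 under total-count scaling, where neither passed. The small rise is thus relative to the centre that TMM sets. Serine withdrawal gave -0.12 ± 0.09 in LPS-treated cells (edgeR adjusted p = 1), with all 4 pairs lower but ranges that overlapped.

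Nr1h3 (ENSMUSG00000002108, chromosome 2, 91184061 to 91202834, minus strand), the LXRα gene that is prominent in macrophages, liver and fat, varied more between replicates. It had 62.4, 30.3, 38.1 and 40.9 CPM untreated with serine and 79.2, 51.1, 60.0 and 64.7 CPM after LPS. Replicate 1 was the highest and replicate 2 the lowest library in both groups. In cells without serine the values were 64.5, 27.3, 44.1 and 57.3 CPM untreated and 68.8, 44.7, 56.6 and 46.6 CPM with LPS. Each pair was higher with LPS in complete medium, while the group ranges overlapped.

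With serine the LPS effect on Nr1h3 was 0.57 ± 0.25 in the unpaired model (edgeR adjusted p = 0.0671) and 0.60 ± 0.13 with the replicate block (adjusted p = 0.00164). It also passed without replicate 1 of the untreated cells with serine (0.81, adjusted p = 0.0135) or replicate 2 of those without it (0.57, adjusted p = 0.0343), and total-count scaling gave -0.05. In the absence of serine the effect was 0.17 ± 0.26 (edgeR adjusted p = 0.576), 0.26 without the shallow library (0.447) and -0.38 under total-count scaling. It passed with the block and without that library together (0.32, edgeR adjusted p = 0.0113). Serine withdrawal in LPS-treated cells gave -0.23 ± 0.25 (edgeR adjusted p = 1) with 4 of 4 pairs lower and overlapping ranges. The log2 ratio of Nr1h3 to Nr1h2 counts within a library, which no scaling moves, had means from -0.81 to -0.66 in the 4 groups and did not pass an exact permutation test in any of 4 comparisons (p = 0.514 to 0.686, two-sided, n = 4 a group).

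Of the cholesterol exporters, Abca1 rose with LPS in medium without serine and Abcg1 fell in medium with it. ABCA1 loads cholesterol and phospholipid onto lipid-poor apolipoprotein A-I, whereas ABCG1 passes cholesterol to formed HDL particles. Abca1 (ENSMUSG00000015243, chromosome 4, 53030787 to 53159895, minus strand) had 1007, 831, 1167 and 1142 CPM untreated with serine and 1208, 1135, 1263 and 1264 CPM with LPS. Without serine it had 1072, 872, 1133 and 527 CPM untreated and 1591, 1475, 1525 and 1680 CPM with LPS. The 4 LPS libraries without serine were the highest of all 16, and the lowest was the shallow replicate 4.

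LPS raised Abca1 in the absence of serine by 0.80 ± 0.18 on the log2 scale (edgeR adjusted p = 0.0015), from 901.1 ± 273.3 to 1568 ± 88.7 CPM (SD, n = 4). Without the shallow library the rise was 0.61 ± 0.12 (adjusted p = 0.000256), and total-count scaling reduced it to 0.20 ± 0.21 (adjusted p = 0.381). In complete medium the effect was 0.23 ± 0.18 (edgeR adjusted p = 0.305), with 4 of 4 pairs higher, overlapping ranges and -0.38 under total-count scaling. It passed with the block and without the shallow library together (0.24, edgeR adjusted p = 0.00142). That the rise passed in one medium and not in the other does not show that the media differed: the test of that difference gave 0.57 ± 0.26 (edgeR adjusted p = 0.95, unadjusted p = 0.0442).

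Abcg1 (ENSMUSG00000024030, chromosome 17, 31057698 to 31115777, plus strand) had negative LPS estimates in both media. It had 470, 422, 439.5 and 408 CPM untreated with serine and 275, 294, 320 and 276 CPM with LPS, so that each LPS library was below each untreated one. Without serine it had 582, 531, 507 and 328 CPM untreated and 375, 446.5, 447 and 393 CPM with LPS, which overlap through the shallow replicate 4. In complete medium the fall was -0.58 ± 0.15 (edgeR adjusted p = 0.00276). Without serine it was -0.23 ± 0.14 (edgeR adjusted p = 0.183), and -0.38 ± 0.09 without the shallow library (adjusted p = 0.00138) or -0.82 ± 0.18 under total-count scaling (adjusted p = 0.000634).

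The ratio of the exporters' counts within each library is free of library scaling. The mean log2 ratio of Abca1 to Abcg1 was 1.24 ± 0.24 untreated and 2.07 ± 0.12 with LPS in complete medium, and 0.86 ± 0.22 and 1.92 ± 0.20 without serine (SD, n = 4). All 4 pairs were higher with LPS and the groups did not overlap in either medium. The exact permutation test, two-sided over 70 arrangements, gave p = 0.0286 in both, the smallest that it can give, and 0.0715 after Benjamini-Hochberg adjustment over the 10 ratio tests made. The ratios were chosen after the counts were seen.

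Serine withdrawal in LPS-treated cells left both exporters higher in every pair. Abca1 moved from 1218 ± 60.7 to 1568 ± 88.7 CPM, a ratio of 1.29, with log2 ratios of 0.397, 0.378, 0.272 and 0.41 in pairs 1 to 4. Abcg1 moved from 291 ± 21.0 to 415 ± 37.0 CPM, a ratio of 1.43, with log2 ratios of 0.447, 0.601, 0.483 and 0.51. Neither gene's groups overlapped.

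The unpaired model gave 0.36 ± 0.18 for Abca1 (edgeR adjusted p = 0.854) and 0.51 ± 0.15 for Abcg1 (adjusted p = 0.285), and the replicate block 0.596 and 0.108 as adjusted p, so neither passed across all genes. DESeq2 called Abcg1 (0.52 ± 0.14, adjusted p = 0.0254), as did edgeR fitted to the LPS groups alone (adjusted p = 0.0494) and edgeR without the shallow library of untreated cells (adjusted p = 0.00858). Abca1 passed only with the block and without that library together (edgeR adjusted p = 0.000707). In untreated cells withdrawal gave -0.20 ± 0.18 for Abca1 and 0.16 ± 0.14 for Abcg1 (edgeR adjusted p = 0.84 and 0.837), and -0.02 ± 0.12 and 0.31 ± 0.09 without the shallow library, with adjusted p of 1 and 0.695.

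Ch25h was also set against the exporters within each LPS library. The mean log2 ratio of Ch25h to Abca1 counts was -1.62 ± 0.20 with serine and -2.93 ± 0.42 without it, and that of Ch25h to Abcg1 was 0.44 ± 0.26 and -1.01 ± 0.50 (SD, n = 4). Both were lower in 4 of 4 pairs, with groups that did not overlap (exact permutation p = 0.0286 each, 0.0715 adjusted over the 10 ratio tests). An exact test that exchanges signs within the 4 pairs cannot go below p = 0.125, the value of both. These outcomes were fixed by the levels above and are not further evidence. Every LPS library without serine was lower in Ch25h, and higher in each exporter, than every LPS library with serine.

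**Figure D2:**
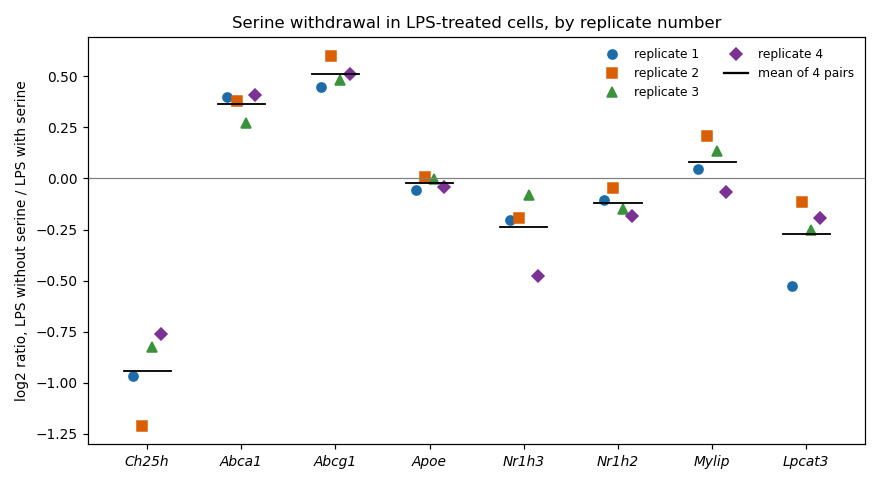
Log2 ratio of the CPM without serine to that with serine in LPS-treated cells for each member, 1 symbol per replicate number and a black line at the mean of the 4 pairs. Ch25h lies between -1.21 and -0.76, Abca1 between 0.272 and 0.41 and Abcg1 between 0.447 and 0.601, while Apoe stays near 0.

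Apolipoprotein E, which accepts exported cholesterol and is secreted by macrophages, was the most abundant member and did not pass any comparison. Apoe (ENSMUSG00000002985, chromosome 7, 19696109 to 19699166, minus strand) had 4107, 1726, 3741 and 4209 CPM untreated with serine, and 4349, 1757, 3921 and 4175 CPM with LPS. Without serine it had 3843, 1742, 3627 and 6855 CPM untreated, and 4178, 1769, 3917 and 4062 CPM with LPS. Replicate 2 was the lowest of each group, and the shallow replicate 4 was the highest library of the series.

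The LPS effect on Apoe was 0.04 ± 0.39 with serine and -0.21 ± 0.39 without it (edgeR adjusted p = 0.938 and 0.668), and the withdrawal effect 0.22 ± 0.39 without LPS and -0.03 ± 0.39 with it (0.912 and 1). Without the shallow library the LPS effect in the absence of serine was 0.18 and the withdrawal effect in untreated cells -0.17, neither of which passed. The wide errors come with the spread between replicate numbers: with the block the SE of the LPS effect with serine was 0.14, and the effect stayed at 0.04 (adjusted p = 0.816). Under total-count scaling that effect was -0.58.

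Mylip, whose product IDOL is a ubiquitin ligase of sterol control, fell with LPS. Mylip (ENSMUSG00000038175, chromosome 13, 45389742 to 45412019, plus strand) had 193.6, 132.0, 143.2 and 159.1 CPM untreated with serine and 120.9, 74.6, 70.6 and 78.0 CPM with LPS. The groups lacking serine had 190.9, 138.9, 161.3 and 65.4 CPM untreated and 124.8, 86.2, 77.6 and 74.6 CPM with LPS. Replicate 1 was the highest library of every group, and the LPS and untreated groups did not overlap with serine.

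The fall of Mylip was -0.87 ± 0.27 with serine (edgeR adjusted p = 0.0114). Without serine it was -0.62 ± 0.27 (edgeR adjusted p = 0.0575) and passed with the replicate block (-0.60 ± 0.19, adjusted p = 0.0159). DESeq2 called it (adjusted p = 0.0477), and edgeR did without the shallow library (-0.85, adjusted p = 0.00237), without replicate 1 of the LPS-treated cells lacking serine (-0.82, adjusted p = 0.0244) and without replicate 1 of those with serine (-0.62, adjusted p = 0.047). Total-count scaling gave -1.21 (adjusted p = 0.0018). Withdrawal in LPS-treated cells gave 0.08 ± 0.27, with 3 of 4 pairs higher (edgeR adjusted p = 1).

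Lpcat3, an LXR target whose enzyme puts polyunsaturated fatty acids into phospholipids, fell with LPS in both media. Lpcat3 (ENSMUSG00000004270, chromosome 6, 124663027 to 124704418, plus strand) had 47.2, 50.8, 51.5 and 45.7 CPM untreated with serine and 41.4, 34.9, 41.0 and 37.9 CPM with LPS. Serine-free cells had 41.4, 43.8, 50.4 and 32.7 CPM untreated and 28.8, 32.2, 34.4 and 33.1 CPM with LPS. All LPS libraries were below the untreated ones in complete medium, and the lowest 4 libraries but for the shallow one were those with LPS and no serine.

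The LPS effect on Lpcat3 was -0.33 ± 0.12 with serine (edgeR adjusted p = 0.0278) and -0.40 ± 0.12 without it (adjusted p = 0.0106), or -0.49 ± 0.09 without the shallow library (0.000223). The call with serine was lost without replicate 2 (adjusted p = 0.0858) or 4 (0.0621) of the LPS group and without replicate 2 (0.0652) or 3 (0.0716) of the untreated group. With no filter on low counts neither call held (edgeR adjusted p = 0.229 and 0.105), and that without serine was also lost with the compared groups alone (0.0599) or without replicate 1 of all groups (0.0525). Withdrawal in LPS-treated cells gave -0.27 ± 0.12 (edgeR adjusted p = 0.756), with 4 of 4 pairs lower and groups that did not overlap, and passed only with the block and without the shallow library together (adjusted p = 0.0406). The gene shares 334 of its exon bases, 10.2%, with Emg1 on the opposite strand, which had 780 counts in the untreated group with serine, 896 in that without it, and 567 and 603 with LPS. These Emg1 values are raw sums, not scaled to library size, so they do not show whether Emg1 changed on the scale used for Lpcat3. Reads from that shared stretch are not told apart.

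**Figure D3:**
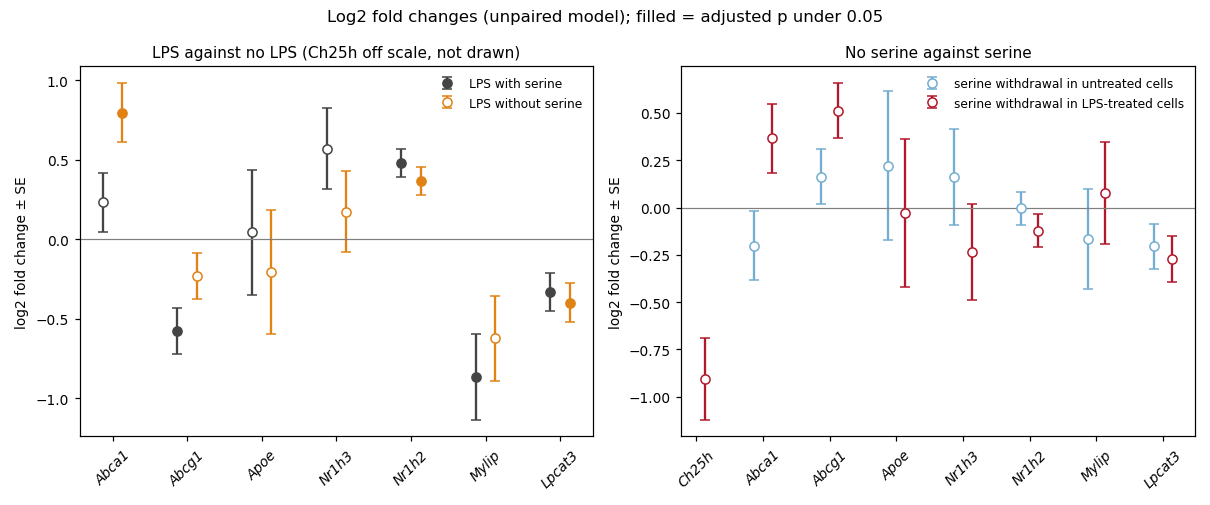
Log2 fold changes ± SE of the members from the unpaired edgeR model, with LPS against no LPS on the left and no serine against serine on the right; filled symbols have an adjusted p under 0.05. Abca1 and Nr1h2 lie above 0 and Abcg1, Mylip and Lpcat3 below 0 with LPS on this TMM scale (with total counts Nr1h2 in both media and Abca1 with serine are below 0), and no withdrawal effect is filled; Ch25h is not drawn for LPS, where it is off scale, or for withdrawal in untreated cells, where it is under the floor.

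Serine withdrawal called none of the 8 members in either setting in the unpaired edgeR model, where 0.0% of all genes passed without LPS and 0.0636% with it. At an unadjusted p under 0.05 the numbers were 0 of 8 without LPS and 3 of 8 with it (Ch25h, Abcg1 and Lpcat3), where 4.98% and 6.14% of all genes were under it. With the block Ch25h passed in LPS-treated cells, where 0.891% of all genes did, and none did in untreated cells, where 0.0818% did. DESeq2 called Ch25h and Abcg1 with LPS, where 0.854% of all genes passed, and none without it (0.118%). Without the shallow library edgeR called the same 2 genes (1.4% of all genes), with the block as well 4 of 8 (8.3%), and with the LPS groups alone Abcg1 (0.35%). In LPS-treated cells the groups did not overlap for 4 of 8 members, against 7.58% of all genes. Ch25h and Lpcat3 were lower there and Abca1 and Abcg1 higher. The members were chosen with earlier results of these data known, so that count beside the share of all genes is a description and not a test. In untreated cells every member's groups overlapped, against 2.78% of genes whose groups did not. The difference between the withdrawals passed for none of the 8 members in edgeR, with 1 at an unadjusted p under 0.05 (Abca1; 2.3% of all genes), where 0.0% of all genes passed with or without the block, and for none in DESeq2 (0.00909%).

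Set per kilobase of merged exon bases, so that levels of different genes can be put side by side, Apoe led every group. Merged bases pool the exons of all annotated transcripts of a gene, and the order depends on the length taken. For Abcg1 it was 7298 bases, where the deposited length is 4695, and the order with deposited lengths was not worked out. Untreated with serine the order was Apoe at 1612 CPM per kb, Abca1 at 100.0, Abcg1 at 59.6, Mylip at 48.6, Nr1h2 at 21.8, Nr1h3 at 17.1, Lpcat3 at 14.9 and Ch25h at 0.0435. Ranges over the 4 libraries overlapped between Abcg1 and Mylip, between Nr1h2 and Nr1h3 and between Nr1h3 and Lpcat3. With LPS and serine Ch25h was second, at 288 CPM per kb, apart from Abca1 at 117.5 and Abcg1 at 39.9. With LPS and no serine Ch25h at 154 and Abca1 at 151 overlapped, while Abcg1 stood at 56.9. In untreated cells without serine the order was that of untreated cells with serine, with Abca1 at 87.0 and Abcg1 at 66.7, which overlapped.

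The rest of the sterol pathway was taken from a list of 51 further genes in 6 roles, of which 42 were tested. With serine, LPS raised 10 and lowered 16 of the 42, with a median log2 fold change of -0.23 against -0.03 over all genes. Without serine the counts were also 10 and 16, with medians of -0.18 and -0.12. Under total-count scaling they were 5 and 28 with serine and 4 and 26 without it. The counts of each role are to be read beside all tested genes, of which 27.6% rose and 28.2% fell with serine and 27.1% and 29.7% without it, or 15.1%, 58.2%, 15.3% and 59.7% with total counts. In the roles below, fold changes are log2 values from the unpaired edgeR model, with serine and then without it.

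Among 6 partners and co-repressors of the LXRs, 3 fell with LPS and none rose in complete medium, and 3 fell and 1 rose without serine. Rxra, the main retinoid X receptor of macrophages and the DNA partner of both LXRs, fell from 150.1 ± 21.0 to 18.5 ± 2.86 CPM with serine and from 132.5 ± 27.9 to 19.4 ± 2.47 CPM without it (SD, n = 4). Its log2 changes were -3.03 ± 0.17 and -2.77 ± 0.17 (edgeR adjusted p = 2.78e-10 and 7.74e-10). Rxrb, a second partner, fell by 0.87 and 0.80 (edgeR adjusted p = 2.38e-06 and 7.08e-06). Leaving out the shallow library, the second value was -2.87 for Rxra and -0.71 for Rxrb, and both passed (7e-11 and 6.75e-07). These falls were larger under total-count scaling. The co-repressor Ncor1 had -0.18 and 0.04 (edgeR adjusted p = 0.252 and 0.816; the second was -0.07 without the shallow library), and fell by 0.80 and 0.54 under total-count scaling (0.000483 and 0.00803).

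Among 12 tested further LXR targets, 4 fell and none rose with serine, and 5 fell and 1 rose without it. Mertk, a receptor for the uptake of dead cells, fell by 1.59 and 1.51 (edgeR adjusted p = 0.000223 and 0.000393). Arl4c, a small GTPase, fell by 1.53 and 0.85 (9.13e-06 and 0.00208). With the shallow library left out, the changes in the absence of serine were -1.66 for Mertk and -0.85 for Arl4c (0.000279 and 0.00337), and the counts of the role were 5 and 4 fallen and 1 and 1 risen. Srebf1, the regulator of fatty acid synthesis, had 0.09 with serine (edgeR adjusted p = 0.511) and 0.29 without it (0.0323; 0.23 and 0.0391 without the shallow library), a call lost without replicate 1 of the LPS group (0.111) or replicate 3 of the untreated group (0.0772) and turned to -0.28 under total-count scaling, which gave -0.53 with serine (adjusted p = 0.00276).

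Lpl, lipoprotein lipase, had 0.36 ± 0.16 with serine (edgeR adjusted p = 0.0701) and passed with the block (0.36, adjusted p = 0.0431), without replicate 4 of its LPS group (0.43, 0.0474) or without the shallow library (0.36, 0.0313), while total-count scaling gave -0.25. Without serine it had 0.22 (edgeR adjusted p = 0.264), 0.33 without the shallow library (0.0699) and -0.33 under total-count scaling (0.0882), and passed with the block and without that library together (0.41, 1.62e-06). Cd5l, a secreted survival factor of macrophages, had -0.39 and -0.32 (edgeR adjusted p = 0.187 and 0.275) and passed with the block in both media (-0.39 and -0.31, adjusted p = 0.000776 and 0.00455). It passed with serine without replicate 1 of the LPS group too (-0.61, adjusted p = 0.0465), and in both media under total-count scaling (-1.005 and -0.89, adjusted p = 0.00229 and 0.00527). Smpdl3a, a phosphodiesterase, had -0.17 and -0.16 (edgeR adjusted p = 0.131 and 0.154), and passed with serine without the shallow library (adjusted p = 0.0464) and in both media under total-count scaling (-0.79 and -0.72, 7.15e-06 and 1.91e-05). In the absence of serine and without the shallow library the values were -0.38 for Cd5l and -0.14 for Smpdl3a, which did not pass (0.22 and 0.13). Pltp, the phospholipid transfer protein, had 0.09 and 0.22 (edgeR adjusted p = 0.723 and 0.369; the second was 0.16 without the shallow library), and -0.53 and -0.36 under total-count scaling, where the first passed (adjusted p = 0.0252).

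Of 8 further genes that handle oxysterols 4 were tested, and 2 fell with LPS in each medium. Gpr183, the receptor for an oxysterol made from 25-hydroxycholesterol, fell from 24.7 ± 5.34 to 0.849 ± 0.749 CPM with serine and from 19.8 ± 3.42 to 0.585 ± 0.207 CPM without it, log2 changes of -4.83 ± 0.34 and -5.08 ± 0.37 (edgeR adjusted p = 3.94e-09 and 6.09e-09). Hsd3b7, which breaks that ligand down, fell by 1.04 and 0.97 (8.74e-07 and 2.1e-06). In serine-free cells without the shallow library the changes were -5.10 for Gpr183 and -1.02 for Hsd3b7 (3.15e-09 and 1.61e-07). Cyp7b1, which makes it, was not tested, since it had no count in 3 of the groups and a mean of 0.118 CPM with LPS and serine. Cyp27a1, the enzyme of 27-hydroxycholesterol, had 0.06 and -0.20 (edgeR adjusted p = 0.884 and 0.594), and 0.02 in place of the second without the shallow library (0.956). Under total-count scaling it had -0.56 with serine (0.0654) and -0.76 without it (0.0174).

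Sterol sensing and uptake was the role with the most genes rising: 6 of 8 tested rose with serine and 5 without it, and none fell. Under total-count scaling 3 rose and 2 fell with serine, and 2 rose and 3 fell without it. Srebf2, the master regulator of cholesterol synthesis, rose by 1.06 and 1.13 (edgeR adjusted p = 3.05e-05 and 1.88e-05). Insig1, which holds SREBP proteins back in the endoplasmic reticulum, rose by 0.64 and 0.72 (edgeR adjusted p = 0.00103 and 0.000408), but had 0.01 and 0.15 under total-count scaling and did not pass there. The rises in the absence of serine were 0.96 for Srebf2 and 0.78 for Insig1 without the shallow library (2.99e-07 and 0.000117).

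Of 9 tested genes of cholesterol storage and transport inside the cell, 5 fell and 3 rose with serine, and 4 fell and 2 rose without it, or 5 and 3 without the shallow library. Nceh1, a hydrolase of cholesterol esters, fell from 577.9 ± 33.7 to 135.4 ± 21.1 CPM with serine and from 619.0 ± 94.4 to 205.5 ± 22.6 CPM without it, by 2.09 and 1.59 on the log2 scale (edgeR adjusted p = 2.75e-09 and 6.7e-08). Soat1, which makes those esters, fell by 1.37 and 1.24 (3.78e-07 and 1.19e-06), and the HDL receptor gene Scarb1 by 0.82 and 0.69 (0.000148 and 0.00082). The changes in the absence of serine without the shallow library were -1.69 for Nceh1, -1.18 for Soat1 and -0.81 for Scarb1, and all 3 passed. Npc1, which releases cholesterol from lysosomes, fell by 1.21 with serine (edgeR adjusted p = 0.00137). Without serine it fell by 0.74 (edgeR adjusted p = 0.0306), a call lost without any single one of replicates 1, 3 and 4 of its LPS group or replicates 1, 2 and 3 of its untreated group (adjusted p of 0.0635 to 0.0891). Without the shallow replicate 4 of the untreated group it fell by 1.03 (edgeR adjusted p = 9.82e-09). Pparg, a lipid-sensing receptor upstream of Nr1h3, fell by 1.78 and 1.43 (edgeR adjusted p = 3.4e-06 and 2.83e-05; the second was -1.51 and 6.09e-06 without the shallow library). It was 1 of 2 genes that fell among 3 tested PPAR genes, and 1 rose, in both media.

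**Figure D4:**
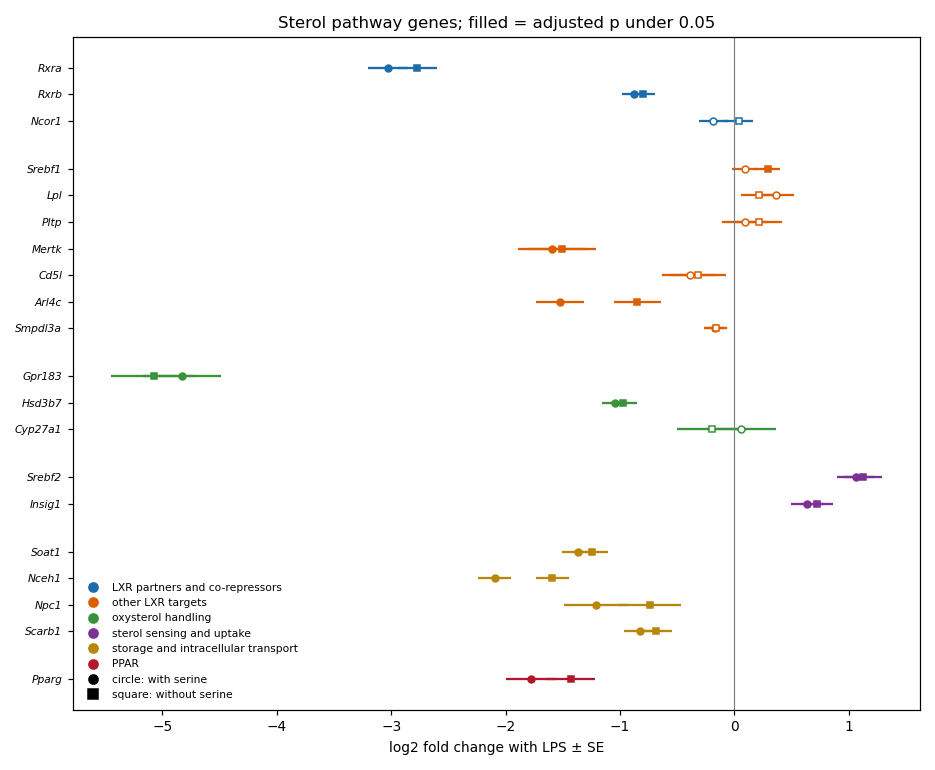
Log2 fold changes ± SE with LPS for the 20 tested genes of the sterol pathway list that are named in the text, coloured by role; circles are with serine, squares without it, and filled symbols have an edgeR adjusted p under 0.05. Gpr183 and Rxra lie farthest to the left of 0, and Srebf2 and Insig1 are filled to the right of it on this TMM scale, where Insig1 does not pass with total counts.

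None of the 42 pathway genes passed for serine withdrawal in the unpaired edgeR model, with 4 at an unadjusted p under 0.05 in untreated cells and 8 in LPS-treated cells, where 4.98% and 6.14% of all genes were under it. DESeq2 called 0 and 2. With the block 2 rose in LPS-treated cells: Arl4c (0.75, edgeR adjusted p = 0.00829, and 0.77 with adjusted p = 0.241 unpaired) and Nceh1 (0.61, adjusted p = 0.0333, and 0.60 with 0.146 unpaired). Nceh1 also passed in the unpaired edgeR model without the shallow library (0.60, adjusted p = 0.0122), and so did Npc1 (0.33, adjusted p = 0.0405). The 8 sterol sensing genes all had negative estimates for withdrawal in LPS-treated cells, with a median of -0.35 against 0.00 over all genes, 4 at an unadjusted p under 0.05 and none called. Without the shallow library 6 of the 8 were under that p, against 13.1% of all genes, and 14 of the 42. With all 16 libraries Srebf2 had -0.27 ± 0.16 for withdrawal in LPS-treated cells in the unpaired model (edgeR adjusted p = 0.968). Without the shallow library it had -0.27 ± 0.09 (edgeR adjusted p = 0.167).

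The genes most like 3 of the members in pattern were found as those with the smallest root mean square difference of centred log2 CPM over the 16 libraries. For Ch25h they were Il1a at 0.645, Ptgs2 at 0.645, Il1b at 0.674 and Il6 at 0.674, against a median of 4.92 over 11003 genes. Il1a and Il1b encode IL-1α and IL-1β, Ptgs2 the inducible cyclooxygenase and Il6 interleukin-6, all known products of LPS-treated macrophages. Their mean levels with LPS were 442, 1508, 755 and 144.6 CPM with serine and 315, 1253, 357 and 94.95 CPM without it. The log2 changes for this withdrawal were -0.49 ± 0.24, -0.27 ± 0.26, -1.08 ± 0.26 and -0.61 ± 0.21 (SE) in the same order. None passed in the unpaired model (lowest edgeR adjusted p = 0.151, for Il1b). With a prior count of 0.5 in place of 2, Il6 and Ptgs2 stayed among the 4 nearest and Il12b and Cxcl11 took the other places, since the near-zero untreated values weigh on the measure.

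For Abca1 the nearest genes were Hnrnpul2, Nek7, Tlr4 and Acap2, with differences of 0.155 to 0.157 against a median of 0.634. Tlr4, the LPS receptor, had 72.1 and 71.4 CPM untreated with and without serine and 77.8 and 108.5 CPM with LPS, so that it was highest in LPS-treated cells without serine, as Abca1 was. Acap2 had 101.4, 96.1, 124.9 and 151 CPM in the same order. For Nr1h3 they were Mif4gd, Nxf1 and Cd55, at the smallest differences, against a median of 0.637. These 3 had their highest mean with LPS and serine, as Nr1h3 did. Likeness in level over these libraries is a description and carries no test.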

How the data were processed

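The authors deposited whole-number read counts for 43430 Ensembl genes, with 1 column for each of 16 libraries, and 24 further per-sample columns of that table were not used. The mm10 build is named in the submitters' processing notes, as are STAR, HTSeq, SAMtools, edgeR and Trimmomatic 0.33, without their roles. Per the labels, libraries were made with a NEBNext Ultra kit and read for 75 cycles, and counting by strand is not given in the sources used here. Symbols came from a GENCODE annotation of the same build and matched 42462 genes.

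From the counts, edgeR 4.0.16 (R 4.3.3, limma 3.58.1) removed genes with low counts by its default filter, scaled by TMM and fitted its quasi-likelihood test, robust, to all 16 libraries with 4 group means. Tests were two-sided, adjusted by Benjamini-Hochberg over 11004 genes, with a threshold of 0.05. Variation between libraries beyond counting error was 20.9% (dispersion 0.0438), with the shallow library included. How much of it is biological is not known from the labels. The steps were tested on simulated counts. Levels per kilobase used merged exon bases of the annotation, not the deposited lengths, which exceed the gene span for some genes. Alternatives were total-count and RLE scaling, no filter, DESeq2 1.42.0, no robust step, the compared groups alone, each library left out, replicate 1 left out of all groups, and the replicate number as a block. Intervals on ratios are 95% counting intervals, and the floor is 3 counts over a group.

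Across genes, the deviations from the group mean of libraries that share a number correlated at 0.086 to 0.66, above 0.1 in 23 of 24 pairs and in each pair of the 4 comparisons between 2 groups, against -0.373 to 0.141 for different numbers. The numbers therefore pair the libraries, from the data and the numbers in the titles, and the unpaired model chosen at the outset is read beside the block. No 2 libraries were copies (lowest chi-square per degree of freedom 2.04 over 120 pairs). The members, the pathway list and the tests were chosen with earlier results of these data known. Named were all 8 members, 23 fixed pathway genes, and the 4 genes nearest in pattern to Ch25h, Abca1 and Nr1h3, a few of which are not reported here.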

Additional observations from a re-analysis of the deposited data

Results flagged for a closer look

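Chance puts about 1 in 20 groups of 4 past Dixon's critical gap, and 3 of the 30 groups of members examined were past it. Mylip in LPS-treated cells with serine had 121 CPM in replicate 1, far above the other 3 libraries, a gap of 0.853 of the range. Apoe had 1760 CPM in replicate 2 of its group with LPS and serine, a gap of 0.835, and 1770 CPM in replicate 2 of those without it, a gap of 0.892, both far below the rest of the group. Replicate 2 was also the lowest for Apoe in both untreated groups, and replicate 1 was the highest for Mylip in every group.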

How the results depend on the processing

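The number of members that passed stayed within 1.5 times of its value for LPS with serine (5), for withdrawal in untreated cells (0) and for the difference between the withdrawals (0) under all alternatives run. For LPS without serine it was 4, and 7 with the replicate block and without replicate 4 of the untreated cells lacking serine. For withdrawal in LPS-treated cells it was 0, and 2 with DESeq2, 1 with the compared groups alone, 1 with the replicate block, 4 with the block and without that library, and 0 to 2 over the single libraries left out. With total-count scaling the LPS effect with serine turned for Abca1 (-0.38), Nr1h2 (-0.14), Nr1h3 (-0.05), Apoe (-0.58), Srebf1 (-0.53), Lpl (-0.25), Pltp (-0.53) and Cyp27a1 (-0.56), and that without serine for Nr1h2 (-0.21), Nr1h3 (-0.38), Ncor1 (-0.54), Srebf1 (-0.28), Lpl (-0.33) and Pltp (-0.36), since that scaling moves the median of all genes. With the replicate block and without the shallow library, effects near 0 turned for LPS without serine in Apoe (0.07) and Ncor1 (-0.05), for withdrawal in untreated cells in Abca1 (0.02), Mylip (0.03) and Apoe (-0.06), and for the difference between the withdrawals in Apoe (0.03). Without replicate 1 in all groups, Apoe turned for LPS with serine (-0.01) and Lpcat3 in the difference between the withdrawals (0.02). Leaving out single libraries, Apoe ran from -0.18 to 0.27 for LPS with serine, -0.46 to 0.18 without it, -0.17 to 0.47 and -0.25 to 0.19 for withdrawal without and with LPS, and -0.5 to 0.14 for their difference. Also without single libraries, withdrawal in untreated cells ran from -0.32 to 0.99 for Ch25h, -0.36 to 0.06 for Mylip and -0.03 to 0.4 for Nr1h3, withdrawal in LPS-treated cells from -0.12 to 0.29 for Mylip, and the difference from -0.16 to 0.03 for Lpcat3. The LPS effect ran from -0.17 to 0.19 for Cyp27a1 and -0.04 to 0.22 for Pltp with serine, and from -0.46 to 0.02 for Cyp27a1, -0.07 to 0.13 for Ncor1 and -0.03 to 0.36 for Nr1h3 without it. None of these effects that turned passed in the unpaired model except Nr1h2, and Srebf1 without serine. The cause was not tested where it is not named. The replicate block changed no call of a member other than Ch25h, Nr1h3 and Mylip. At 2 counts in the group with serine and 3 in that without it, depth limits what can be said of Ch25h without LPS.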
